A study of Mus musculus with 9 samples.

Results

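The 37 genes described here are genes of oligodendrocytes and myelin, chosen by symbol from the 55401 genes of the deposited table. Each symbol matched 1 row, and all 37 genes had counts in all 9 libraries. They were measured by Smart-seq2, which copies whole transcripts from very little RNA, in material that the labels call spinal cord motoneurons of mice. The SBES group had a spinal cord injury and synergistic bidirectional electrical stimulation, at 10 Hz in library 1, 15 Hz in library 2 and 20 Hz in library 3, so frequency and library cannot be told apart. The untrained group had the injury without stimulation, and the sham group is labelled as having no treatment. All 3 groups were of genotype WT, carried the TRDA label in the neurons and were sampled 4 weeks after the injury. Strain, age and sex are not stated in the labels. Glass electrodes drew the labelled neurons from fresh slices of cord, and the number of neurons behind a library is not given. Each group holds 3 libraries and, per the labels, 3 mice, but no label ties a library to a mouse, so p-values measure the spread between these libraries.

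Oligodendrocytes wrap axons of the central nervous system in myelin, a compacted membrane rich in cholesterol, galactolipids and a small set of proteins. Precursor cells that carry the receptor Pdgfra leave the cell cycle, pass through a premyelinating stage and then make myelin proteins and lipids under factors such as Olig2, Sox10 and Myrf. Injury of the cord kills oligodendrocytes and strips axons of myelin, and precursors then divide and can form new myelin. By their known roles the genes fall into 3 genes of precursors and premyelinating cells, 5 transcription factors, 13 genes of the myelin membrane, its adhesion and its cytoskeleton, 7 enzymes of lipid and other metabolism, and 9 other genes enriched in oligodendrocytes.

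The libraries held 11821145 to 17675948 counts. Libraries numbered 1 stood apart: the nuclear RNA Malat1 was at 4774 CPM in SBES library 1, 16069 CPM in untrained library 1 and 15128 CPM in sham library 1, against 514 to 1617 CPM in the other libraries (CPM, counts scaled to 1e6, here of the library total). The share of mitochondrially encoded genes was 18.6% in SBES library 1, 7.36% in sham library 1 and 2.47% to 6.27% in the others. Over the labelled cell type's defining markers, the median of the 8 motor neuron genes lay between 4.23 and 12.8 CPM. That of 12 pan-neuronal genes lay between 429.6 and 1051 CPM (CPM from here on scaled by TMM factors). Those factors were 0.760 in SBES library 1 and 0.727 in sham library 1, against 1.02 to 1.16 in the others. Low factors raise the scaled CPM of both libraries. Genes of other cells were present too, with a median of 123.9 to 211.9 CPM over 9 astrocyte genes and 37.4 to 127.1 CPM over 10 genes of microglia and macrophages. The median over the 37 oligodendrocyte genes was 78.7, 99.4 and 146.4 CPM in SBES libraries, 72.7, 115.2 and 127.4 CPM in untrained libraries and 127.8, 161.5 and 170.1 CPM in sham libraries, in the order of replicates 1 to 3, as in all lists of values below. In such material, fewer cells of a type and less RNA per cell cannot be told apart.

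Compared per length, Mbp stood far above every other gene of the set. FPKM, which divides counts by exon length and library size, averaged over the 9 libraries was 6158 for Mbp, myelin basic protein, which holds the cytoplasmic faces of the membrane together. Next came Plekhb1 at 824.4 FPKM, Qdpr at 794.2 FPKM, Trf at 694.9 FPKM, Mobp at 619.0 FPKM, Cnp at 368.5 FPKM and Car2 at 287.6 FPKM. The 2 lowest were the precursor and premyelinating receptors, Gpr17 at 0.63 FPKM and Pdgfra at 0.39 FPKM, and the factor Myrf followed at 1.77 FPKM. All 37 genes together took 6.24%, 5.86% and 8.002% of counts in SBES libraries, 4.47%, 7.82% and 7.35% in untrained libraries and 8.27%, 6.71% and 7.99% in sham libraries. Mbp by itself took 3.40% to 6.85%. By TMM-scaled CPM, untrained library 1 was the lowest of the 9 for 20 of the 37 genes and for 15.2% of all genes tested. The median FPKM of the 37 genes was lowest in SBES library 1 at 16.95, against 26.9 in untrained library 1.

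In stimulated animals, 3 of the 37 genes were lower than in sham animals at an edgeR adjusted p under 0.05 and none was higher. They were Ugt8a, which makes the main galactolipid of myelin, Serpinb1a, an inhibitor of serine proteases, and Car2, the carbonic anhydrase of oligodendrocytes. Over all 15893 genes tested, 55 were called in this comparison, 0.346%, of which 43 were higher and 12 lower, against 8.11% of the 37 genes. At an unadjusted p under 0.05, 14 of the 37 genes were lower and none higher, against 3.61% and 5.7% of all genes. With the replicate number as a block, edgeR called 132 genes, 0.831%, 5 of them among the 37. These were the same 3 genes, Ermn (edgeR adjusted p = 0.0496) and Opalin (edgeR adjusted p = 0.0184). No label ties same-numbered libraries to each other, so it is not known that the block pairs them rightly. In deviations from group means, same-numbered SBES and sham libraries correlated at 0.268, 0.159 and 0.144, and differently numbered ones at -0.25 to 0.168. SBES library 3 correlated more with sham library 2 (0.168) than with sham library 3 (0.144). DESeq2 called 6 of the 37 as lower, the same 3 genes with Ermn, Gpr17 and Gal3st1, where it called 0.458% of all genes as lower and 1.34% as higher. Of the 37 log2 fold changes 26 were negative, where 50.2% of all genes were. Their median was -0.33, while that over all genes tested was -0.0018. Leaving out 1 library gave 0 calls over all genes without sham library 3, 4 without SBES library 3, 6 without sham library 2, 24 without untrained library 2, 29 without sham library 1 and 86 without SBES library 1. Among the 37 it gave 0 without SBES library 3 or sham library 3, and 1, Ugt8a, without SBES library 2 or sham library 2.

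**Figure D1:**
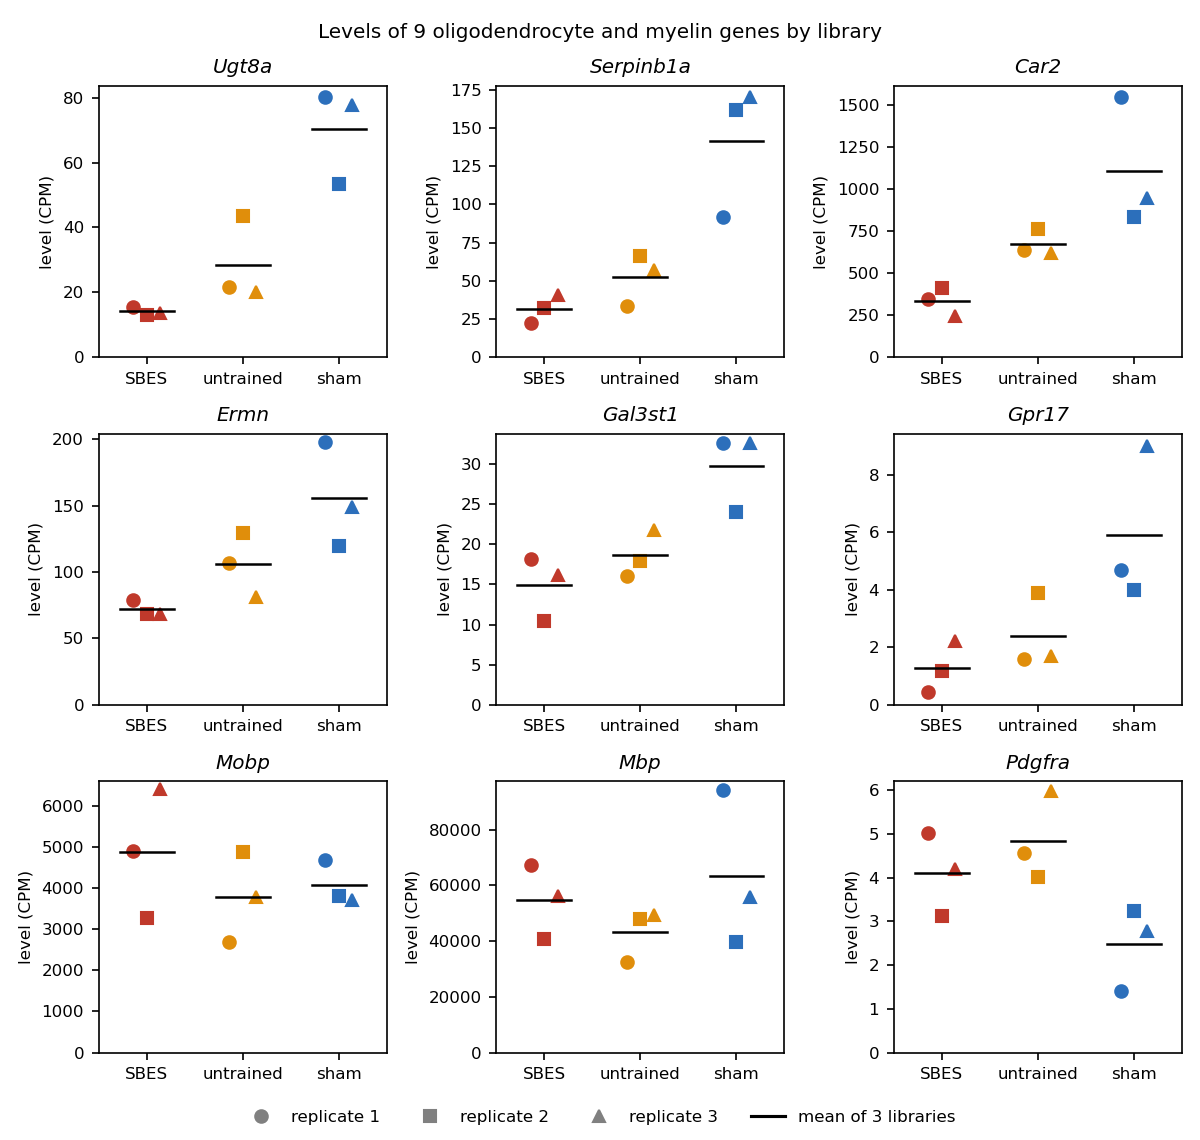
Levels of 9 genes in CPM (vertical axis from 0, a scale for each gene) in the 3 SBES, 3 untrained and 3 sham libraries, with a symbol for each replicate number and a bar at the group mean. Ugt8a and Car2 stood in the order SBES, untrained, sham with no library out of place, while Mobp and Mbp overlapped between all groups.

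Genes of other cells were measured beside these changes. The 12 pan-neuronal genes had a median log2 fold change of 0.0017 in SBES against sham libraries, the 8 motor neuron genes -0.23, the 9 astrocyte genes 0.37, the 10 genes of microglia and macrophages 0.55 and the 5 ependymal genes -0.16, and neither edgeR nor DESeq2 called any of them. Their summed levels overlapped between SBES and sham libraries. For the microglia and macrophage genes the sum was 941.7 to 3284 CPM in SBES, 1303 to 1646 CPM in untrained and 726.6 to 1735 CPM in sham libraries, and for the astrocyte genes 10558 to 12495 CPM in SBES, 9743 to 14484 CPM in untrained and 10383 to 13924 CPM in sham libraries. The 10 genes of endothelium and pericytes did not overlap in sum, with 596.0 to 874.1 CPM in SBES and 325.4 to 571.8 CPM in sham libraries. All 10 of their log2 fold changes were positive, with a median of 0.38. EdgeR called none of them, and DESeq2 called Ly6c1 (adjusted p = 0.00184) and Pecam1 (adjusted p = 0.0443). The part of these cells in the values of the oligodendrocyte genes was not tested.

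The 7 enzymes of lipid and other metabolism had the lowest median log2 fold change of the 5 roles in SBES against sham libraries. All 7 values were negative, with a median of -0.999 and an unadjusted p under 0.05 for each, and 2 passed the adjusted threshold. Ugt8a (chr3:125865271-125938619, minus strand, mm10), ceramide galactosyltransferase, makes galactosylceramide. It stood at 15.6, 13.1 and 13.5 CPM in SBES libraries, 21.5, 43.4 and 20.03 CPM in untrained libraries and 80.3, 53.4 and 77.9 CPM in sham libraries. Group means were 14.1 ± 1.33 CPM in SBES libraries, 28.3 ± 13.1 CPM in untrained libraries and 70.5 ± 14.9 CPM in sham libraries (SD, n = 3 each). No library of the SBES group overlapped with the untrained or the sham group, and the untrained libraries all lay below the sham libraries. Ugt8a fell by 2.33 (SE 0.32) on the log2 scale in SBES against sham libraries (edgeR adjusted p = 0.0149). The call was lost without SBES library 3 (adjusted p = 0.0869) or without sham library 3 (adjusted p = 0.122), and it held in 18 of 20 alternative analyses.

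Car2 (chr3:14886273-14900770, plus strand, mm10), carbonic anhydrase 2, interconverts carbon dioxide and bicarbonate. It stood at 348.5, 414.8 and 242.7 CPM in SBES libraries, 636.1, 762.5 and 621.4 CPM in untrained libraries and 1550.3, 832.5 and 946.9 CPM in sham libraries. Group means were 335.4 ± 86.8 CPM in SBES libraries, 673.3 ± 77.6 CPM in untrained libraries and 1109.9 ± 385.6 CPM in sham libraries (SD, n = 3 each). The 3 groups did not overlap here either, and sham library 1 was the highest. That library's TMM factor was low, and in FPKM the sham libraries stood at 464.8, 394.3 and 405.7. Car2 fell by 1.73 (SE 0.30) on the log2 scale in SBES against sham libraries (edgeR adjusted p = 0.0370). Of the 3 calls this was the least stable, since leaving out any SBES or sham library, untrained library 2 or untrained library 3 each ended it, and it held in 11 of 20 alternatives. Ugt8a and Car2 were 2 of 38 genes, 0.239% of those tested, whose 9 libraries stood in the order SBES below untrained below sham without overlap.

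Galactosylceramide is the substrate of Gal3st1, which adds sulfate to make sulfatide. Gal3st1 stood at 18.2, 10.4 and 16.2 CPM in SBES libraries, 16.1, 17.98 and 21.8 CPM in untrained libraries and 32.7, 23.99 and 32.7 CPM in sham libraries. Its SBES libraries lay below all sham libraries and its untrained libraries did too (log2 fold change -0.999, SE 0.26 in SBES against sham, edgeR adjusted p = 0.160, and DESeq2 adjusted p = 0.0420). Fa2h makes the 2-hydroxy fatty acids of these lipids and stood at 14.4, 20.2 and 24.7 CPM in SBES libraries, 17.5, 29.7 and 26.4 CPM in untrained libraries and 39.9, 36.5 and 43.5 CPM in sham libraries. The SBES and untrained libraries overlapped with each other and not with the sham libraries (log2 fold change -1.01, SE 0.27, edgeR adjusted p = 0.160).

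Aspa frees acetate from N-acetylaspartate, an acetyl source for lipid synthesis, and stood at 53.7, 88.6 and 47.4 CPM in SBES libraries, 72.7, 103.3 and 111.1 CPM in untrained libraries and 85.7, 136.1 and 130.8 CPM in sham libraries. SBES libraries 1 and 3 and untrained library 1 lay below every sham library (log2 fold change -0.89, SE 0.29, edgeR adjusted p = 0.288). Enpp2, autotaxin, makes lysophosphatidic acid and stood at 162.7, 87.4 and 177.8 CPM in SBES libraries, 148.1, 191.2 and 168.6 CPM in untrained libraries and 249.9, 253.2 and 191.0 CPM in sham libraries. Here the SBES libraries lay below all sham libraries, by a log2 fold change of -0.70. Qdpr regenerates tetrahydrobiopterin and stood at 816.1, 626.5 and 1495 CPM in SBES libraries, 681.8, 1683 and 1545 CPM in untrained libraries and 1494, 1958 and 2168 CPM in sham libraries. SBES library 3 was level with sham library 1, and the log2 fold change was -0.94. Of Qdpr's exonic bases, 18.6% lie under an antisense gene, and the strand setting of the counting is not stated.

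Promoter sequences are shown for the genes that edgeR or DESeq2 called and for which a window was available. Beside them stand 2 myelin membrane genes that were not called, Mag and Mobp, picked as examples and not by a rule. Windows of 250 bases before to 50 after the start (RefSeq, GRCm38.p6) were available for 23 of the 37 genes. Among the 6 called by edgeR or DESeq2 these were Ermn, Gal3st1 and Ugt8a. A gene missing from this set of windows may still have a start in RefSeq. Printed are the 250 bases before the start, on the gene's strand, at chr3:125938653-125938902 (minus) for Ugt8a, chr11:3983386-3983635 (plus) for Gal3st1, chr2:58052865-58053114 (minus) for Ermn, chr7:30914864-30915113 (minus) for Mag and chr9:120149492-120149741 (plus) for Mobp. Capitals mark matches, on either strand, to ACAAAG and AACAAT, of the kind bound by SOX factors, to CTGGCAC, of the kind bound by Myrf, and to the E-boxes CAGCTG and CAGATG, of the kind bound by factors such as Olig2.
Ugt8a: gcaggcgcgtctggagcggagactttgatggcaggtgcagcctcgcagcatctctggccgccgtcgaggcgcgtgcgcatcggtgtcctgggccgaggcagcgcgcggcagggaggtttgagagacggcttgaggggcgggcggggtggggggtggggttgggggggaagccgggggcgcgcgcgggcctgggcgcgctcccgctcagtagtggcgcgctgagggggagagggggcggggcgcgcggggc
Gal3st1: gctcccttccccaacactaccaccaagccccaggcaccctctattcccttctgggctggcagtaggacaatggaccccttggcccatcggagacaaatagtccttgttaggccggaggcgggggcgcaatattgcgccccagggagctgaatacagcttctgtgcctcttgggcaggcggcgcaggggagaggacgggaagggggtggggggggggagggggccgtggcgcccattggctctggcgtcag
Ermn: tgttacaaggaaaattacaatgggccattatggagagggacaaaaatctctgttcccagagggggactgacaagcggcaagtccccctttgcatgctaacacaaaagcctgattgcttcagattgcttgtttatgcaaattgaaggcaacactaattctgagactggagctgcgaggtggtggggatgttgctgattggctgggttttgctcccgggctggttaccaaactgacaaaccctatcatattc
Mag: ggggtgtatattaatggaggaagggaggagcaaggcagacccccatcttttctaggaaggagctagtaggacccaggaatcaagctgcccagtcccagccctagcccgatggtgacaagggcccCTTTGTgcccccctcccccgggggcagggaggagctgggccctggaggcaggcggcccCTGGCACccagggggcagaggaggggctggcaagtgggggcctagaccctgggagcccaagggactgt
Mobp: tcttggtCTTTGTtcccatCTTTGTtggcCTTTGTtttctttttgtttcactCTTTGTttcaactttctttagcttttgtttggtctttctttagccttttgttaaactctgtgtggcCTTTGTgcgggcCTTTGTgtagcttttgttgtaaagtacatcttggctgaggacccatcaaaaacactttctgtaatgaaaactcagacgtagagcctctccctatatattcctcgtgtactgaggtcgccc
None of the 5 motifs occurred in the windows of Ugt8a, Gal3st1 and Ermn, the 50 bases after the start included. Mag held ACAAAG once and CTGGCAC once, and Mobp held ACAAAG at 6 places. Windows of Mog, Mal, Cldn11, Pmp22, Anln and Nkx6-2, which were not called either, held none of the 5 motifs. Among the printed sequences only those of Mag and Mobp held matches, but these genes were picked as examples. With windows for only 3 called genes and no test, it cannot be decided whether called and uncalled genes differ in these motifs. Over all windows of the table, 18.7% held ACAAAG, 10.7% AACAAT, 5.01% CTGGCAC, 16.3% CAGCTG and 17.2% CAGATG. Over the 34 windows of the 37 genes the shares were 26.5%, 11.8%, 17.6%, 8.82% and 26.5% in the same order. GC content of the printed stretches was 76.8% for Ugt8a, 65.6% for Gal3st1, 47.2% for Ermn, 66.0% for Mag and 40.8% for Mobp, against a median of 52.7% over all windows. These matches describe letters in a window and say nothing of binding.

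The 13 genes of the myelin membrane, its adhesion and its cytoskeleton had a median log2 fold change of -0.09 in SBES against sham libraries, with 5 positive and 8 negative values and none called by edgeR. Ermn, ermin, an actin-binding protein of late oligodendrocytes, stood at 78.7, 68.7 and 68.5 CPM in SBES libraries, 107.1, 129.6 and 81.3 CPM in untrained libraries and 197.8, 119.6 and 149.2 CPM in sham libraries. SBES libraries lay below all untrained and all sham libraries (log2 fold change -1.11, SE 0.25, edgeR adjusted p = 0.103, and DESeq2 adjusted p = 0.00507). Opalin, a membrane glycoprotein of central myelin, stood at 37.4, 109.2 and 123.0 CPM in SBES libraries, 50.6, 108.4 and 140.5 CPM in untrained libraries and 173.7, 223.2 and 281.6 CPM in sham libraries. Both injured groups lay below the sham libraries, with SBES library 1 the lowest (log2 fold change -1.33, SE 0.44, edgeR adjusted p = 0.303). Mog, the outermost glycoprotein of the sheath, stood at 199.3, 243.9 and 351.7 CPM in SBES libraries, 112.6, 335.4 and 305.8 CPM in untrained libraries and 267.3, 460.3 and 608.3 CPM in sham libraries. Sham library 3 was the highest and untrained library 1 the lowest (log2 fold change -0.75, SE 0.41, edgeR adjusted p = 0.635).

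The most abundant structural genes overlapped between SBES and sham libraries. Mbp stood at 67259, 40718 and 56103 CPM in SBES libraries, 32381, 47987 and 49509.5 CPM in untrained libraries and 94286, 39860.3 and 55886 CPM in sham libraries. Its highest value was in sham library 1 and its lowest in untrained library 1 (log2 fold change -0.21, SE 0.41, edgeR adjusted p = 0.932). SBES library 1 was above sham libraries 2 and 3 in CPM. In FPKM that library lay at 6030, above sham library 2 at 5399 and below sham library 3 at 6848. Mobp, another basic protein of compact myelin, stood at 4924, 3281 and 6421 CPM in SBES libraries, 2688, 4875 and 3782 CPM in untrained libraries and 4689.8, 3811 and 3716 CPM in sham libraries. Its groups overlapped, with SBES library 3 the highest, at a log2 fold change of 0.26. Mag, the adhesion molecule that faces the axon, stood at 631.6, 484.7 and 1203 CPM in SBES libraries, 378.5, 706.3 and 645.4 CPM in untrained libraries and 873.3, 719.5 and 881.3 CPM in sham libraries. SBES library 3 was the highest for Mag as well, while the untrained libraries all lay below the sham libraries. The log2 fold change in SBES against sham was -0.09, which turned to 0.085 without the 3 libraries numbered 1.

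Cldn11 forms the tight junctions of the sheath and stood at 219.8, 267.1 and 350.7 CPM in SBES libraries, 85.5, 210.5 and 231.0 CPM in untrained libraries and 258.1, 215.5 and 312.8 CPM in sham libraries. SBES library 3 was the highest and untrained library 1 the lowest. Cnp, a phosphodiesterase of the cytoplasmic channels of myelin, overlapped between SBES and sham libraries (log2 fold change -0.39, SE 0.37). The lipid raft protein Mal was at 0.18, the tetraspanin Tspan2 at 0.09, the connexin Gjc3 at -0.03 and the nodal link protein Hapln2 at 0.35. Pmp22, best known from myelin of peripheral nerve, was at -0.33.

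**Figure D2:**
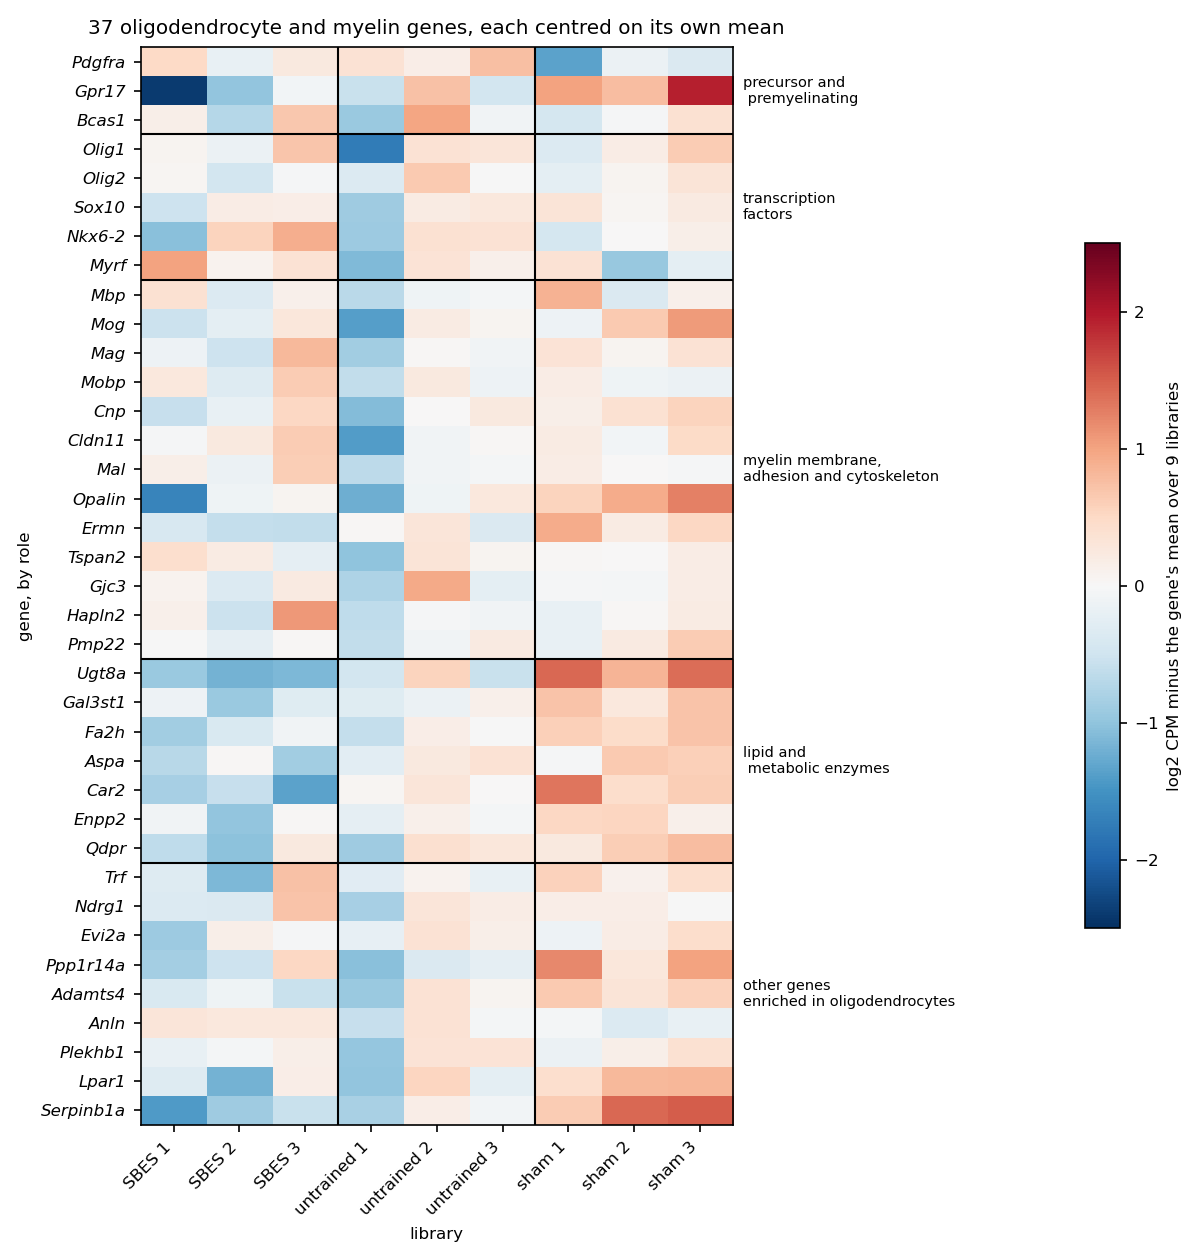
log2 CPM of the 37 genes (rows, by role) in the 9 libraries (columns), each gene minus its own mean, red for above and blue for below it, with the colour scale ending at 2.5 either way. The lipid and metabolic enzymes are mostly blue in the SBES columns and mostly red in the sham columns. Untrained library 1 is blue for most of the membrane genes.

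Among the 9 other genes enriched in oligodendrocytes, 8 had negative log2 fold changes in SBES against sham libraries, with a median of -0.41, and 1 was called. This was Serpinb1a (chr13:32842092-32851185, minus strand, mm10), which stood at 22.2, 32.2 and 40.4 CPM in SBES libraries, 33.8, 66.4 and 56.9 CPM in untrained libraries and 92.1, 161.5 and 170.1 CPM in sham libraries. Group means were 31.6 ± 9.15 CPM in SBES libraries, 52.3 ± 16.8 CPM in untrained libraries and 141.2 ± 42.8 CPM in sham libraries (SD, n = 3 each). Every SBES library lay below every sham library, as did every untrained library, and SBES library 3 was above untrained library 1. Serpinb1a fell by 2.16 (SE 0.34) on the log2 scale in SBES against sham libraries (edgeR adjusted p = 0.0277). The adjusted p was 0.0686 without SBES library 2, 0.0825 without SBES library 3, 0.103 without sham library 2 and 0.176 without sham library 3, and 14 of 20 alternatives kept the call.

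Ppp1r14a, an inhibitor of myosin phosphatase, stood at 82.3, 103.9 and 211.1 CPM in SBES libraries, 71.3, 115.2 and 127.4 CPM in untrained libraries and 339.7, 179.2 and 298.7 CPM in sham libraries. SBES library 3 lay above sham library 2, and the untrained libraries lay below all sham libraries (log2 fold change -1.04, SE 0.37, edgeR adjusted p = 0.361). Lpar1, a receptor for the lysophosphatidic acid that Enpp2 makes, stood at 38.2, 21.2 and 53.6 CPM in SBES libraries, 24.1, 69.3 and 40.7 CPM in untrained libraries and 64.5, 84.2 and 84.99 CPM in sham libraries. The SBES libraries lay below all sham libraries (log2 fold change -1.05, SE 0.39, edgeR adjusted p = 0.388). Adamts4, a protease of extracellular matrix, stood at 10.8, 13.2 and 9.65 CPM in SBES libraries, 7.47, 18.2 and 14.8 CPM in untrained libraries and 22.2, 17.6 and 21.04 CPM in sham libraries. It too had no overlap between SBES and sham libraries, with a log2 fold change of -0.86.

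Anln, the actin-binding protein anillin, was the exception in direction at 35.8, 34.9 and 35.2 CPM in SBES libraries, 19.6, 37.4 and 28.2 CPM in untrained libraries and 28.3, 23.1 and 25.7 CPM in sham libraries. Its SBES libraries lay above all sham libraries (log2 fold change 0.46, SE 0.25, edgeR adjusted p = 0.625). Of the 37 genes, 1 lay above and 11 lay below sham without overlap, against 7.1% and 6.73% of all genes tested. The iron carrier Trf was at -0.41, the membrane protein Evi2a at -0.38, Plekhb1, a membrane-anchored protein with a pleckstrin domain, at -0.17 and Ndrg1, a stress-responsive protein of myelinating glia, at -0.01. Trf shares 63.5% of its exonic bases with another annotated gene on the same strand and Evi2a shares 19.2%, so counts of both are uncertain.

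The 5 transcription factors had a median log2 fold change of 0.04 in SBES against sham libraries and no unadjusted p under 0.05 in any comparison. Olig1 and Olig2 are basic helix-loop-helix factors that specify the lineage. Olig1 stood at 269.0, 229.5 and 412.5 CPM in SBES libraries, 76.1, 329.0 and 315.2 CPM in untrained libraries and 200.7, 289.5 and 397.8 CPM in sham libraries. Untrained library 1 was far below the other libraries of its group, and SBES and sham libraries overlapped widely. Olig2 stood at 18.5, 13.04 and 17.5 CPM in SBES libraries, 14.1, 28.3 and 17.7 CPM in untrained libraries and 15.03, 18.7 and 22.5 CPM in sham libraries, with log2 fold changes of -0.20 against sham and -0.30 against untrained libraries.

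Sox10 drives myelin genes throughout the lineage and stood at 33.2, 53.9 and 53.7 CPM in SBES libraries, 25.6, 54.8 and 56.9 CPM in untrained libraries and 59.7, 49.3 and 55.9 CPM in sham libraries. In CPM sham library 1 was the highest and untrained library 1 the lowest. In FPKM untrained library 2 was the highest at 20.8 and SBES library 1 the lowest at 8.26. The log2 fold change in SBES against sham libraries was -0.23. Myrf, which starts the myelin programme in maturing cells, stood at 28.7, 15.2 and 18.2 CPM in SBES libraries, 6.68, 17.98 and 15.6 CPM in untrained libraries and 18.4, 7.36 and 12.05 CPM in sham libraries. SBES library 1 was the highest and untrained library 1 the lowest (log2 fold change 0.72, SE 0.41, edgeR adjusted p = 0.658). The homeodomain factor Nkx6-2 had a log2 fold change of 0.43, and 12.9% of its exonic bases lie under a gene on the other strand.

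No gene of precursors and premyelinating cells was called by edgeR. Gpr17, a receptor that premyelinating cells carry briefly, stood at 0.446, 1.18 and 2.23 CPM in SBES libraries, 1.59, 3.90 and 1.69 CPM in untrained libraries and 4.68, 3.998 and 8.995 CPM in sham libraries. Its counts were 4 to 165 per library, and SBES libraries lay below all sham libraries with SBES library 1 the lowest (log2 fold change -2.14, SE 0.56, edgeR adjusted p = 0.157, and DESeq2 adjusted p = 0.0147). Pdgfra, the growth factor receptor of precursors, stood at 5.01, 3.12 and 4.21 CPM in SBES libraries, 4.56, 4.01 and 5.97 CPM in untrained libraries and 1.42, 3.24 and 2.78 CPM in sham libraries. With 13 to 99 counts per library it was also low, and the highest value was in untrained library 3 (log2 fold change 0.70, SE 0.37, edgeR adjusted p = 0.612). Fibroblasts make Pdgfra as well, and 4 genes of fibroblasts and meninges summed to 17.8 to 22.2 CPM in SBES libraries, 17.4 to 28.8 CPM in untrained libraries and 17.6 to 25.0 CPM in sham libraries. Bcas1, which marks cells starting to myelinate, stood at 522.3, 288.1 and 749.3 CPM in SBES libraries, 246.9, 935.2 and 441.6 CPM in untrained libraries and 347.4, 460.6 and 609.3 CPM in sham libraries, and its groups overlapped (log2 fold change 0.14, SE 0.45).

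**Figure D3:**
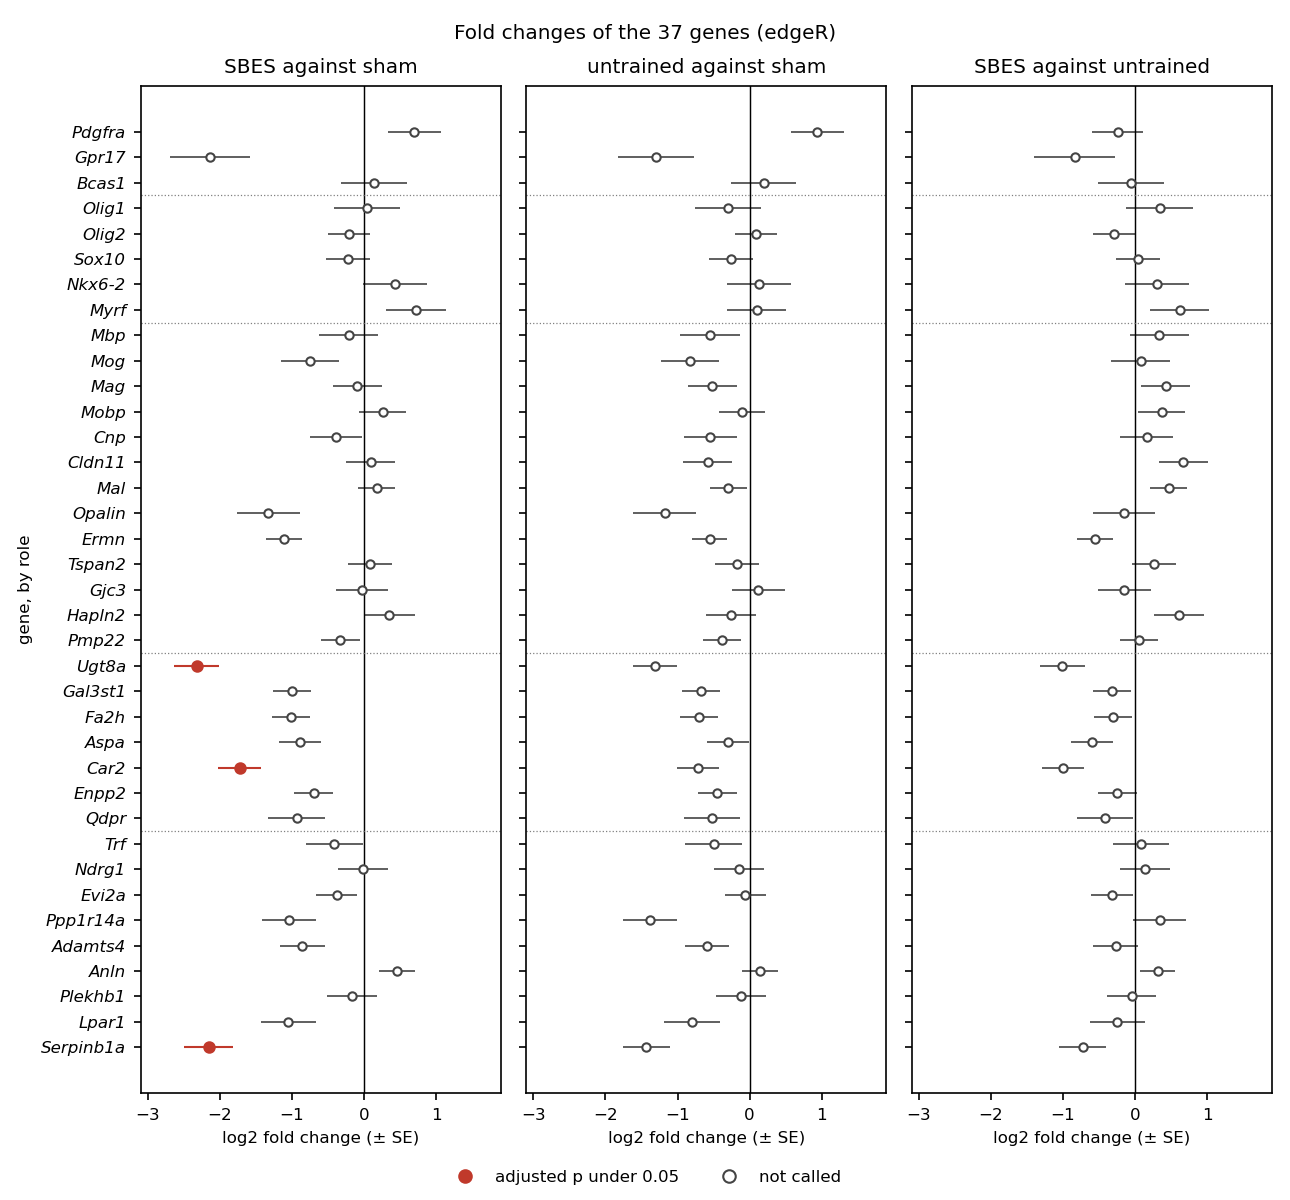
log2 fold changes of the 37 genes (rows, by role) in the 3 comparisons, edgeR estimate with its standard error, filled where the adjusted p is under 0.05. The 3 filled points, Ugt8a, Serpinb1a and Car2, are all in SBES against sham. The lipid and metabolic enzymes lie left of 0 in all 3 panels.

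The comparison of untrained with sham animals concerns the injury without stimulation. No gene of the 15893 was called by edgeR, 0%, and so none of the 37. At an unadjusted p under 0.05, 347 genes were higher and 360 lower, 2.18% and 2.27%. DESeq2 called 14 genes, 0.0673% as higher and 0.0184% as lower, and none of the 37. Limma on FPKM called 0 or 1 gene by pseudocount and none of the 35 members it tested, since Gpr17 and Pdgfra fell below its filter. Of the 37 genes, 1 was higher (Pdgfra) and 9 lower at an unadjusted p under 0.05. Without overlap between groups, 1 gene lay above and 11 below sham, against 4.63% and 5.13% of all genes. Negative log2 fold changes were found for 30 of the 37 genes and for 50.9% of all genes, with a median of -0.45 beside -0.0068 over all genes tested. Without untrained library 1 that median was -0.18, and without the 3 libraries numbered 1 it was -0.22.

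By role, the medians in untrained against sham libraries were -0.68 for the lipid and metabolic enzymes, -0.52 for the membrane genes, -0.49 for the other enriched genes, 0.09 for the transcription factors and 0.20 for the precursor genes. The smallest p-values were those of Serpinb1a (log2 fold change -1.43, SE 0.33, edgeR adjusted p = 0.802) and Ugt8a (log2 fold change -1.32, SE 0.31, edgeR adjusted p = 0.802). Ppp1r14a was at -1.38, Gpr17 at -1.30, Opalin at -1.18, Mog at -0.83 and Pdgfra at 0.94. Values of neuronal genes lay lower in the same libraries: 10 of 12 pan-neuronal log2 fold changes were negative, with a median of -0.44, and their summed CPM was 7706 to 8220 in untrained and 10147 to 14734 in sham libraries. All 10 genes of microglia and macrophages had positive log2 fold changes, with a median of 0.43 and a summed CPM of 1303 to 1646 in untrained and 726.6 to 1735 in sham libraries. Of the 10 genes of endothelium and pericytes 9 had positive values, with a median of 0.64, and all 5 ependymal genes had negative values, with a median of -0.69. Their part in the values of the oligodendrocyte genes was not tested.

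Stimulated and untrained animals, which share the injury, differ by the stimulation. No gene was called by edgeR, 0%. DESeq2 called 29 genes, 0.146% as higher and 0.0463% as lower, and none of the 37. Limma on FPKM called 1 or 0 genes by pseudocount and none of the 35 members it tested. At an unadjusted p under 0.05, 588 genes were higher and 266 lower, 3.7% and 1.67%. Of the 37 genes, none was higher and 4 were lower. These were Car2 (log2 fold change -1.01, SE 0.29, edgeR adjusted p = 0.749), Ugt8a (log2 fold change -1.01, SE 0.31, edgeR adjusted p = 0.771), Ermn (-0.56) and Serpinb1a (-0.73). Car2, Ermn and Ugt8a had SBES libraries wholly below the untrained libraries, where 4.77% of all genes did, and no member lay wholly above, where 5.66% of all genes did. The 37 log2 fold changes were split into 18 positive and 19 negative, where 48.3% of all genes were negative, with a median of -0.05 beside 0.02 over all genes tested. That median was 0.20 without untrained library 2, 0.14 without untrained library 3, -0.26 without SBES library 3 and -0.31 without untrained library 1.

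The roles lay on different sides of 0 in this comparison. All 7 lipid and metabolic enzymes had negative values, with a median of -0.41, and 10 of the 13 membrane genes had positive values, with a median of 0.26. Cldn11 was at 0.67, Hapln2 at 0.61, Mal at 0.47, Mag at 0.42 and Mobp at 0.37. None of these passed the adjusted threshold. Untrained library 1 was the lowest of the 9 libraries for each of these 5 genes and for most of the membrane genes. Without that library, 9 of the 37 log2 fold changes were positive and 28 negative, with a median of -0.31. With library totals in place of TMM scaling, which put the median of all genes at -0.19, 7 of the 13 membrane genes were positive and 6 negative, and all 7 enzymes stayed negative. Some lists of other cells also had mostly positive values, in 5 of 5 ependymal genes (median 0.90), 10 of 12 pan-neuronal genes (median 0.37) and 8 of 9 astrocyte genes (median 0.35). Other lists were mixed. Positive values were found for 3 of 8 motor neuron genes (median -0.07) and 5 of 10 genes of microglia and macrophages (median 0.01). For endothelium and pericytes it was 6 of 10 (median 0.17), and for fibroblasts and meninges 1 of 3 tested (median -0.14). The part of these cells was not tested. The 3 comparisons share libraries, so their values for a gene are not independent of each other.

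Within each library the lipid and metabolic enzymes were also set against the membrane genes. The value taken was the median log2 CPM of the 7 enzymes minus that of the 13 membrane genes. This difference of levels was -1.89, -1.48 and -2.89 in SBES libraries, -0.56, -1.03 and -1.06 in untrained libraries and -1.59, -0.71 and -1.26 in sham libraries. SBES libraries 1 and 3 lay below all others, while SBES library 2 lay above sham library 1. Each median is the level of 1 gene. On the enzyme side it was Aspa, except for Enpp2 in SBES library 2. On the membrane side the gene changed, such as Cldn11 in SBES library 3 and Ermn in untrained library 1. CPM is not divided by length, and the difference does not measure a shift of all 7 enzymes. No test was run on it, since the roles were drawn up with earlier results of these data known.

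**Figure D4:**
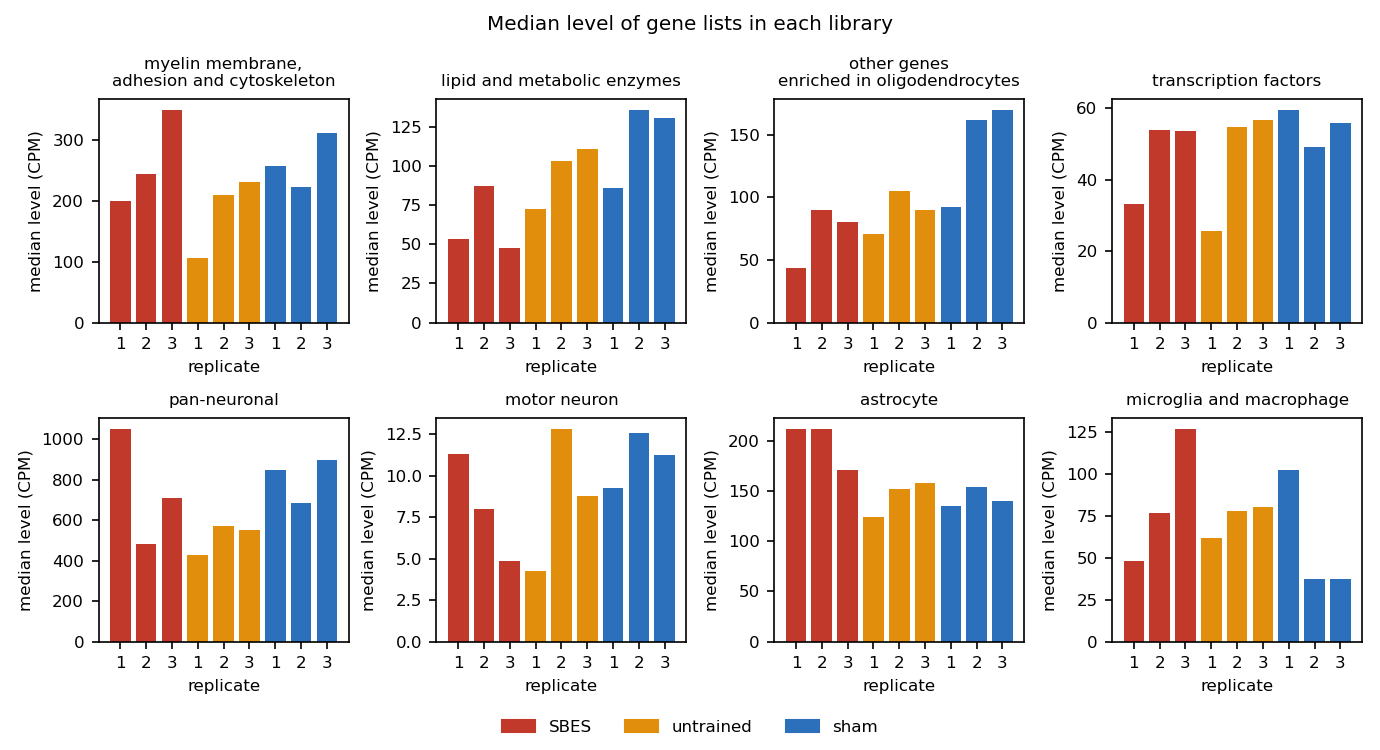
Median level in CPM (bars from 0) of 4 groups of oligodendrocyte genes and 4 lists of genes of other cells in each library, ordered SBES, untrained, sham and by replicate within a group. The median of the lipid and metabolic enzymes is lowest in SBES libraries 1 and 3 at 53.7 and 47.4 CPM, the level of Aspa. Their summed level was lowest in SBES library 2 at 1261 CPM, then SBES library 1 at 1429 CPM. SBES library 3, at 2018 CPM, lay above untrained library 1 at 1594 CPM. The median of the genes of microglia and macrophages reaches 127.1 CPM in SBES library 3.

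Beyond the 37, a list of 31 further genes of the oligodendrocyte lineage held no edgeR call in any comparison. In SBES against sham libraries 12 of the 31 log2 fold changes were positive and 19 negative, with a median of -0.31, and at an unadjusted p under 0.05 there was 1 higher and 5 lower, beside the 5.7% and 3.61% of all genes given above. Nearest to the threshold was Tppp, a tubulin-binding protein of oligodendrocytes (log2 fold change -1.14, SE 0.22, edgeR adjusted p = 0.0521, and DESeq2 adjusted p = 0.000728). Tppp stood at 30.1, 29.3 and 27.9 CPM in SBES libraries, 48.6, 63.6 and 48.98 CPM in untrained libraries and 57.3, 77.1 and 57.8 CPM in sham libraries. DESeq2, with 0.458% of all genes lower and 1.34% higher, also called Ninj2, an adhesion protein (log2 fold change -1.76, SE 0.49), and Enpp6, a choline phosphodiesterase of newly formed oligodendrocytes (log2 fold change -1.26, SE 0.35), as lower, and Zfp536, a zinc finger protein (log2 fold change 1.15, SE 0.29), as higher. In untrained against sham libraries 23 of the 31 were negative, with a median of -0.23, among them Ninj2 at -1.77 and the protease Klk6 at -1.48. In SBES against untrained libraries 17 of the 31 were positive, with a median of 0.06.

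Without the 3 libraries numbered 1, the comparison of SBES with sham called 581 of 16210 genes, 3.58%, and 6 of the 37, these 6 all lower. These were Ugt8a (-2.29, adjusted p = 0.00316), Serpinb1a (-2.18, adjusted p = 0.000342), Car2 (-1.43, adjusted p = 0.0112), Opalin (-1.11, adjusted p = 0.0136), Ermn (-0.96, adjusted p = 0.0464) and Gal3st1 (-1.08, adjusted p = 0.0468), each by edgeR. In untrained against sham the same libraries gave 47 calls, 0.29%, with Serpinb1a among the 37, and in SBES against untrained 13 calls, 0.0802%, with none of the 37.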

How the data were processed

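The authors deposited 1 table of gene counts and FPKM for 9 Smart-seq2 libraries. Per the labels' protocols, reads were aligned with Hisat2 2.0.1 and counted with HTSeq 0.6.1, and per the submitters' processing notes the build was mm10; no source names the annotation release or the strand setting of the counting. The deposited FPKM values equal the deposited counts divided by exonic length and library total, within 0.006. Table columns were matched to libraries by name for 5 libraries and by elimination for 4 (untrained 1 to 3 and the 10 Hz SBES library).

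The counts were fitted with edgeR 4.0.16 (R 4.3.3): filterByExpr, which left 15893 of 55401 genes, TMM factors, and quasi-likelihood tests in 1 fit of the 9 libraries with a coefficient per group. P-values were adjusted by Benjamini-Hochberg over all genes tested, with a threshold of 0.05. Levels are CPM on TMM-scaled library sizes. Single genes are ranked against each other in FPKM. Medians and sums of gene lists, and the difference of enzyme and membrane medians, are in CPM and not divided by length. All 37 genes passed the filter. Roles, the 31 further lineage genes and the marker lists come from general knowledge. A marker list is not reported here. The members and lists were chosen with earlier results of these data known. Genes named in each comparison were a fixed set of lineage genes and those with the smallest p-values, and further members were named to describe their role. Total counts of 11821145 to 17675948 limit the precision of low genes such as Gpr17 and Pdgfra.

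Alternatives were RLE factors, library totals, other count filters, DESeq2 1.42.0, limma 3.58.1 on log2(FPKM + 1) and log2(FPKM + 0.1) of genes with FPKM of at least 1 in 3 libraries, a replicate block, fits of only 2 groups, each library left out, and the 3 libraries numbered 1 left out or given a term. To check the pairing, deviations from group means were correlated over genes. Same-numbered SBES and sham libraries gave 0.268, 0.159 and 0.144; SBES and untrained libraries gave 0.242, -0.168 and 0.262, and untrained and sham libraries 0.391, 0.001 and 0.222. Differently numbered libraries gave -0.25 to 0.168, -0.359 to 0.204 and -0.355 to 0.267 in the same order of groups. The replicate numbers come from the sample titles, which name no shared litter or day. Promoter windows are RefSeq's for GRCm38.p6.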

Additional observations from a re-analysis of the deposited data

How the results depend on the processing

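The median log2 fold changes of the 37 genes kept within the spread between libraries in every alternative. Without 1 library they ranged from -0.60 to -0.18 in untrained against sham, -0.31 to 0.20 in SBES against untrained and -0.47 to -0.23 in SBES against sham. Library totals put the median of all genes at 0.18, -0.19 and -0.018 in these comparisons and that of the 37 at -0.25, -0.26 and -0.36. They split the 37 into 12 higher and 25 lower, 12 and 25, and 10 and 27. Counts of calls moved more, and the cause was not tested. In untrained against sham, with 0 called, genes called numbered 1 with library totals, 134 with no filter, 4 with the replicate block, 9 when the libraries numbered 1 had their own term, 47 without those libraries, 14 by DESeq2 and 1 by limma on log2(FPKM + 0.1). The 37 had 4 calls with no filter and 1 with the block, the term or without those libraries. In SBES against untrained, with 0 called, genes called numbered 186 with no filter, 13 without the libraries numbered 1, 29 by DESeq2, 1 by limma on log2(FPKM + 1) and 0 to 1 without 1 library. In SBES against sham, with 55 called, they numbered 517 with no filter, 132 with the block, 186 with the term, 581 without the libraries numbered 1, 283 by DESeq2, 19 and 17 by limma, and 0 to 86 without 1 library. The 37 then had 8, 5, 7, 6 and 6 calls in that order up to DESeq2, and 0 to 3 without 1 library, beside 3 in the report. In all 3 comparisons the libraries share only a number, and not every library correlated best with its own number. The block turned no sign among the named genes. With all libraries kept, the calls that ended were Serpinb1a by limma (adjusted p = 0.104 and 0.127) and Car2 with only 2 groups (adjusted p = 0.0718). All 3 calls are lower in SBES libraries in each alternative.

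Uncalled log2 fold changes turned sign in at least 1 alternative for 11 of the 37 genes between SBES and sham, 21 between SBES and untrained, and 14 between untrained and sham libraries. In SBES against sham the ranges were -0.20 to 0.66 for Hapln2, -0.054 to 0.34 for Mal, -0.086 to 0.25 for Tspan2, -0.11 to 0.26 for Cldn11, -0.22 to 0.43 for Bcas1, -0.15 to 0.12 for Gjc3 and -0.47 to 0.20 for Ndrg1. Values for genes of the fixed set follow. In untrained against sham, library totals gave Mobp 0.12, limma gave Mobp 0.071 and 0.071, and leaving out the libraries numbered 1 gave Mbp 0.054, Mobp 0.23 and Sox10 0.11. In SBES against untrained, library totals gave Mog -0.12, Cnp -0.021, Sox10 -0.14 and Pmp22 -0.17. There limma gave Mog -0.032 and -0.031, Cnp -0.029 and -0.029, Sox10 -0.12 and -0.13, and Pmp22 -0.13 and -0.13. The limma fits used FPKM without a scaling factor. They put the median of all genes tested at -0.17 and -0.22 in this comparison, and at 0.14 and 0.18 in untrained against sham. Leaving out the libraries numbered 1 gave Mbp -0.031, Mog -0.13, Sox10 -0.075, Olig1 -0.025, Myrf -0.025 and Pmp22 -0.19. In SBES against sham, library totals gave Olig1 -0.023, and leaving out the libraries numbered 1 gave Mbp 0.023, Mag 0.085, Sox10 0.040 and Olig1 -0.091. Without 1 library, SBES against untrained spanned -0.20 to 0.42 for Cnp, -0.048 to 0.67 for Mag, -0.29 to 0.34 for Mog, -0.11 to 0.63 for Olig1, -0.52 to 0.038 for Olig2, -0.17 to 0.27 for Pmp22 and -0.27 to 0.23 for Sox10. Untrained against sham spanned -0.33 to 0.13 for Mobp, -0.17 to 0.51 for Myrf, -0.60 to 0.16 for Olig1, -0.24 to 0.32 for Olig2 and -0.45 to 0.060 for Sox10. SBES against sham spanned -0.56 to 0.15 for Mag, -0.46 to 0.21 for Mbp and -0.25 to 0.31 for Olig1. Depth limits Gpr17 and Pdgfra, whose counts were 4 to 165 and 13 to 99 per library.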
